A study of Oryza sativa Japonica Group with 64 samples.

Results

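Transcript levels of 8 rice genes that perceive light or pass the light signal on were compared across genotypes, photoperiods, hours of the day and tissues. They are the phytochrome genes PHYA (LOC_Os03g51030), PHYB (LOC_Os03g19590) and PHYC (LOC_Os03g54084), the cryptochrome genes CRY1a (LOC_Os02g36380), CRY1b (LOC_Os04g37920) and CRY2 (LOC_Os02g41550), the E3 ubiquitin ligase gene COP1 (LOC_Os02g53140) and the phytochrome-interacting factor gene OsPIL1 (LOC_Os03g56950). By these identifiers they lie on chromosomes 2, 3 and 4. They were chosen by name as genes of light perception and signalling, and are 8 of the 55986 gene models in the tables. All 8 passed the filter on low counts in anthers, in leaves and in the joint fit of both tissues.

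RNA was sequenced from plants of the rice mutant csa (carbon starved anther), which is male sterile in short days and fertile in long days, and from wild type (WT) plants. All plants were of the japonica background 9522 and grew in paddy fields, and the sources used here do not give the kind of csa mutation. Short-day (SD) plots had 12 h of light because an opaque film covered them between 18:00 and 6:00, and long-day (LD) plots had the natural day of about 14.5 h. Flag leaves were taken at stage 12 of anther development at 6 clock times from csa in SD, WT in SD, csa in LD and WT in LD, and anthers of the same tillers were taken at 04:00 and 16:00 from the same 4 kinds of plant, with 2 biological replicates of each group. That gives 16 anther libraries with 18.0 to 26.0 M counted reads (M for 1000000) and 48 leaf libraries with 12.9 to 20.5 M. Whole anthers and leaves were sequenced, so fewer cells of a type and less RNA per cell cannot be told apart.

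Phytochromes are red and far-red receptors, and cryptochromes are blue-light receptors. In plants, COP1 marks light-response regulators for breakdown in the dark, and active phytochromes bind phytochrome-interacting factors and trigger their removal in the light. In rice, PHYA, PHYB and PHYC together carry the photoperiodic control of flowering through the phytochromes, CRY2 promotes flowering, and OsPIL1 promotes internode elongation.

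The genotype labels were checked with 8 other genes, 6 on chromosome 1 and 2 on chromosome 3. These differed by at least 2 on the log2 scale between csa and WT, both in anthers and in LD leaves outside 12:00. The difference had the same direction in both tissues, and the csa and WT libraries did not overlap. In the 4 SD leaf libraries labelled 12:00, 31 of 32 values lay nearer the genotype that the label does not name, against 3 of 160 in the SD leaf libraries of the other times. In the LD libraries labelled 12:00 it was 0 of 32. The csa and WT labels of the SD leaf libraries of 12:00 therefore go against their markers. For comparisons that set csa against WT in SD leaves, or use 1 genotype of SD leaves, some results are also given without 12:00. Over single genes and leaf comparisons, 175 of 176 edgeR results kept direction and call without 12:00, and 1 call was lost. Photoperiod and time comparisons that average both genotypes weigh the 4 libraries alike. Tapetum and late-pollen marker genes were expressed in anthers and nearly absent from leaves, where the tapetum gene RAFTIN1 had 0 counts in all 48 libraries. The leaf markers were 3 light-response genes of photosynthesis, and in WT all 3 were lower in anthers than in leaves at 16:00. At 04:00 only 1 of the 3 was lower in anthers and 1 was higher, so they did not separate the tissues at both hours.

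In flag leaves, the 3 phytochrome genes were lowest at 08:00, and the other 5 genes were highest at 08:00 by their means in both photoperiods. Levels are given as counts per 1000000 after scaling by trimmed mean of M-values (CPM), as mean ± standard deviation (s.d.) of the 4 libraries of both genotypes at a time, and fold changes as log2 ± SE from edgeR's quasi-likelihood test with Benjamini-Hochberg adjustment over all genes. PHYA, the receptor for far-red and very weak light, averaged 33.5 ± 0.850 at 08:00, 36.7 ± 2.32 at 12:00, 46.2 ± 4.12 at 16:00, 61.4 ± 5.02 at 20:00, 63.1 ± 8.26 at 00:00 and 62.8 ± 7.24 at 04:00 CPM in SD. In LD it averaged 17.1 ± 3.28 at 08:00, 25.8 ± 5.73 at 12:00, 39.9 ± 6.35 at 16:00, 60.2 ± 3.99 at 20:00, 63.3 ± 3.87 at 00:00 and 55.3 ± 6.48 at 04:00 CPM. It was lowest at 08:00 and highest in the night, with a ratio of the highest to the lowest mean of 1.89 in SD and 3.70 in LD. The 3 highest means, at 20:00, 00:00 and 04:00, had overlapping libraries.

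PHYB, the main red-light receptor, averaged 71.96 ± 6.995 at 08:00, 109.7 ± 12.7 at 12:00, 149.7 ± 13.03 at 16:00, 356 ± 13.1 at 20:00, 182 ± 30.1 at 00:00 and 134 ± 14.998 at 04:00 CPM in SD. In LD it averaged 74.2 ± 16.3 at 08:00, 146 ± 15.4 at 12:00, 186 ± 15.3 at 16:00, 253 ± 23.03 at 20:00, 207 ± 20.2 at 00:00 and 104 ± 13.3 at 04:00 CPM. Its maximum stood at 20:00 in both photoperiods and its minimum at 08:00. PHYC, which in rice is stable only as a partner of phyB, averaged 50.7 ± 6.53 at 08:00, 95.03 ± 11.6 at 12:00, 143 ± 14.7 at 16:00, 161 ± 13.3 at 20:00, 98.2 ± 16.5 at 00:00 and 87.9 ± 18.4 at 04:00 CPM in SD. In LD its means were 22.5 ± 5.17 at 08:00, 98.8 ± 13.5 at 12:00, 137 ± 20.2 at 16:00, 138 ± 9.73 at 20:00, 93.7 ± 9.27 at 00:00 and 55.9 ± 1.77 at 04:00 CPM. Its level was highest at 16:00 and 20:00, where the libraries of the 2 times overlapped, and lowest at 08:00.

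The cryptochromes CRY1a and CRY1b followed another course. CRY1a averaged 214 ± 29.4 at 08:00, 97.3 ± 8.87 at 12:00, 75.5 ± 11.03 at 16:00, 82.6 ± 8.30 at 20:00, 95.01 ± 15.5 at 00:00 and 116 ± 12.4 at 04:00 CPM in SD. In LD its means were 190.3 ± 40.2 at 08:00, 117 ± 5.37 at 12:00, 84.97 ± 10.6 at 16:00, 98.95 ± 14.1 at 20:00, 134 ± 26.5 at 00:00 and 126 ± 25.3 at 04:00 CPM. CRY1b averaged 433 ± 29.6 at 08:00, 223 ± 16.5 at 12:00, 141 ± 6.52 at 16:00, 247 ± 7.69 at 20:00, 252 ± 12.04 at 00:00 and 321 ± 22.5 at 04:00 CPM in SD. For LD the means were 299 ± 29.4 at 08:00, 189 ± 27.5 at 12:00, 99.9 ± 14.1 at 16:00, 198 ± 15.9 at 20:00, 254 ± 11.2 at 00:00 and 294 ± 41.5 at 04:00 CPM. Both are blue-light receptors that restrain seedling elongation in rice, and both were highest at 08:00 and lowest at 16:00 by their means in SD and in LD. CRY2 had a flatter course in SD, with 44.3 ± 2.15 at 08:00, 37.4 ± 2.02 at 12:00, 38.7 ± 3.57 at 16:00, 38.1 ± 2.51 at 20:00, 26.5 ± 5.85 at 00:00 and 23.9 ± 6.49 at 04:00 CPM. In LD it averaged 41.3 ± 6.45 at 08:00, 25.9 ± 2.39 at 12:00, 34.3 ± 3.27 at 16:00, 32.7 ± 4.02 at 20:00, 15.7 ± 1.72 at 00:00 and 12.7 ± 1.24 at 04:00 CPM, lowest at 04:00 and 00:00.

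COP1 averaged 418 ± 57.6 at 08:00, 249 ± 25.99 at 12:00, 54.9 ± 2.85 at 16:00, 72.6 ± 7.80 at 20:00, 90.4 ± 14.2 at 00:00 and 181 ± 22.6 at 04:00 CPM in SD. Its LD means were 457 ± 33.3 at 08:00, 156 ± 16.2 at 12:00, 46.9 ± 4.91 at 16:00, 57.5 ± 5.81 at 20:00, 103 ± 5.42 at 00:00 and 223 ± 17.8 at 04:00 CPM. The ratio of its highest to its lowest mean was 7.61 in SD and 9.74 in LD. OsPIL1 had the widest course of the 8 genes, with 1022 ± 153 at 08:00, 432 ± 47.6 at 12:00, 106 ± 6.47 at 16:00, 33.2 ± 1.38 at 20:00, 19.2 ± 2.32 at 00:00 and 38.1 ± 4.27 at 04:00 CPM in SD. In LD it averaged 439.8 ± 83.6 at 08:00, 214 ± 62.99 at 12:00, 40.8 ± 2.01 at 16:00, 23.04 ± 2.17 at 20:00, 28.6 ± 2.22 at 00:00 and 33.7 ± 3.03 at 04:00 CPM. The ratio of its highest to its lowest mean was 53.3 in SD and 19.1 in LD. Both genes peaked at 08:00 in both photoperiods, COP1 was lowest at 16:00, and OsPIL1 was lowest at 00:00 in SD and at 20:00 in LD.

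**Figure D1:**
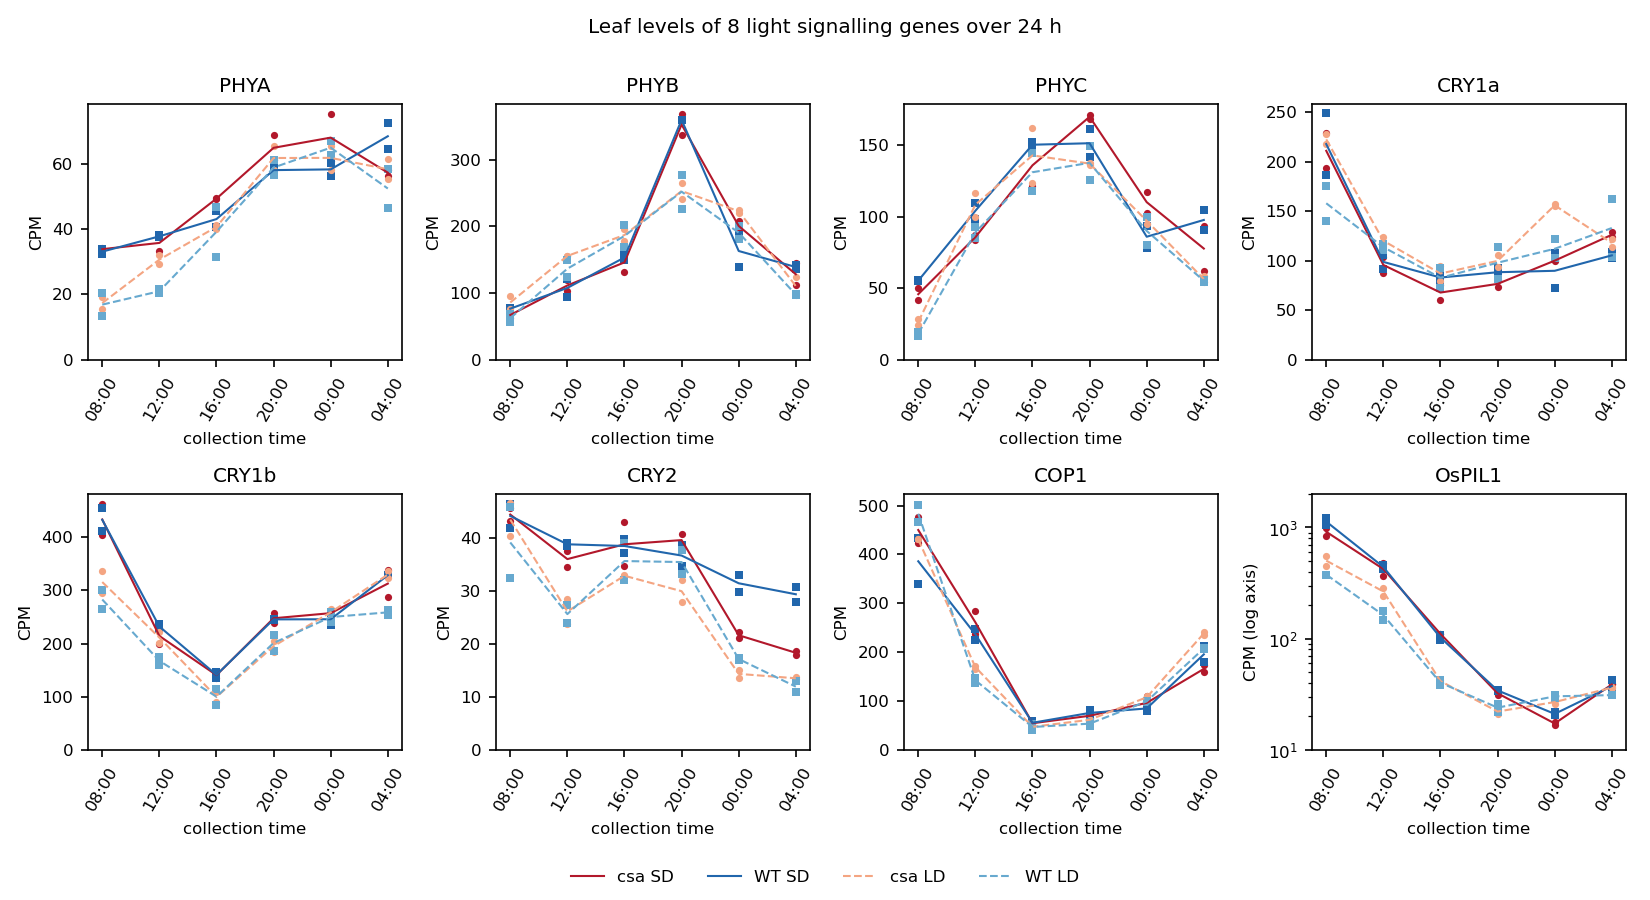
Leaf level in CPM (linear axis from 0, log axis for OsPIL1) of each of the 8 genes against clock time from 08:00 to 04:00. Red circles are csa libraries and blue squares WT libraries, 2 for each group and time, and lines join the group means, solid and dark in SD, dashed and pale in LD. OsPIL1 spans the widest range, from a mean of 19.2 CPM at 00:00 to one of 1022 CPM at 08:00 in SD, while the phytochrome genes are lowest at 08:00.

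Between 04:00 and 08:00, from night into morning, all 8 genes changed in SD and 7 of 8 in LD. Many genes changed between these hours, and the background, the share of all 22095 genes tested that were called, was 58.4% in SD and 50.0% in LD. At 08:00 OsPIL1 had 836 and 993 CPM in csa and 1206 and 1052 CPM in WT in SD, against 38.8 and 38.7 CPM in csa and 42.6 and 32.3 CPM in WT at 04:00. The 4 morning libraries lay far above the 4 night libraries (4.74 ± 0.11, adjusted p = 6.27e-25), as they did in LD (3.70 ± 0.11, adjusted p = 7.79e-23). COP1 rose by 1.21 ± 0.10 in SD (adjusted p = 8.27e-12) and 1.04 ± 0.10 in LD (adjusted p = 4.54e-10), and CRY2 by 0.93 ± 0.10 (adjusted p = 1.79e-09) and 1.70 ± 0.10 (adjusted p = 1.48e-14) by edgeR.

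The phytochrome genes fell between 04:00 and 08:00 in both photoperiods. PHYA had 19.2 and 15.5 CPM in csa and 13.3 and 20.4 CPM in WT at 08:00 in LD, against 61.3 and 55.2 CPM in csa and 46.4 and 58.4 CPM in WT at 04:00, without overlap (−1.68 ± 0.12, adjusted p = 3.34e-13 by edgeR). In SD PHYA also fell (−0.90 ± 0.11, adjusted p = 3.77e-08). PHYB changed by −0.90 ± 0.12 in SD and −0.50 ± 0.12 in LD (adjusted p = 6.31e-08 and 0.000512), and PHYC by −0.79 ± 0.12 and −1.34 ± 0.12 (adjusted p = 8.36e-07 and 1.3e-10). CRY1a rose by 0.89 ± 0.13 in SD and 0.58 ± 0.13 in LD (adjusted p = 9.55e-07 and 0.000525), and CRY1b by 0.43 ± 0.09 in SD (adjusted p = 0.000147), whereas CRY1b in LD was not called (0.03 ± 0.09, adjusted p = 0.798). The directions of CRY1b depend on the scaling. Library totals alone in place of trimmed means shift the median of all genes by −0.35 in SD and −0.37 in LD and put CRY1b at −0.03 in SD (adjusted p = 0.765) and −0.45 in LD (adjusted p = 2.05e-05). CRY1a in LD was at 0.10 (adjusted p = 0.478) with library totals alone.

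Between 16:00 and 20:00, 5 of 8 genes changed in SD (background 53.2% of genes) and 5 of 8 in LD (background 48.4%). PHYB had 337 and 368 CPM in csa and 359 and 360.1 CPM in WT at 20:00 in SD, against 161 and 132 CPM in csa and 158 and 149 CPM in WT at 16:00, with all 4 evening libraries above all 4 afternoon libraries (1.25 ± 0.11, adjusted p = 9.82e-11 by edgeR). In LD PHYB also rose (0.44 ± 0.11, adjusted p = 0.0018). OsPIL1 fell by 1.68 ± 0.10 in SD and by 0.83 ± 0.10 in LD on the log2 scale (adjusted p = 3.99e-15 and 3.46e-08). CRY1b rose by 0.81 ± 0.09 in SD and 0.99 ± 0.09 in LD (adjusted p = 1.02e-08 and 2.27e-10), and PHYA by 0.41 ± 0.11 and 0.59 ± 0.11 (adjusted p = 0.00227 and 4.92e-05). COP1 rose by 0.40 ± 0.10 in SD (adjusted p = 0.0014). In LD COP1 rose too (0.29 ± 0.10, adjusted p = 0.02), and that call was lost without any 1 of 6 libraries, csa LD 16:00 replicates 1 and 2, csa LD 20:00 replicates 1 and 2, WT LD 16:00 replicate 2 and WT LD 20:00 replicate 1 (adjusted p between 0.0529 and 0.2). It was also lost with no filter on low counts (adjusted p = 0.0916), without 12:00 (0.0578) and with only the libraries compared (0.059). PHYC, CRY1a and CRY2 were not called in either photoperiod, while library totals alone, which shift the median of all genes by 0.20 in SD and 0.26 in LD, called PHYC and CRY1a higher in both.

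A 24 h cosine was fitted to each gene in each of the 4 combinations of genotype and photoperiod, and 31 of the 32 fits passed the edgeR test. The background was high, with 70.3% of genes called in csa SD, 67.7% in WT SD, 66.5% in csa LD and 71.3% in WT LD. The fitted peak of OsPIL1 fell at 10.5 h of the clock in csa SD, 10.2 h in WT SD, 9.53 h in csa LD and 9.35 h in WT LD. Its log2 amplitude, the distance from mean to peak, was 2.84, 2.83, 2.30 and 1.92 in the same order. The COP1 peak lay at 7.92 h in csa SD and 7.80 h in WT SD, and at 6.76 h in csa LD and 6.83 h in WT LD. The PHYB peak lay at 20.7 h in csa SD and 20.6 h in WT SD, and at 19.6 h in csa LD and 19.4 h in WT LD.

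The fitted peaks of the other genes ranged over the 4 combinations from 22.4 to 23.8 h for PHYA, 18.3 to 19.4 h for PHYC, 5.85 to 7.58 h for CRY1a, 3.83 to 5.36 h for CRY1b and 12.5 to 14.3 h for CRY2. For CRY2 the fitted peak does not mark its highest hour, which by the means was 08:00 in both photoperiods. In LD its mean was lower at 12:00 (25.9 CPM) than at 08:00 (41.3 CPM) and 16:00 (34.3 CPM), a course that a single cosine does not follow. The fit that did not pass was CRY2 in WT SD (adjusted p = 0.497), which passed with the times as a factor (adjusted p = 0.00395, background 81.2%). CRY2 in csa SD (adjusted p = 0.0343) was lost without any 1 of 5 libraries, csa SD 00:00 replicates 1 and 2, csa SD 04:00 replicates 1 and 2 and csa SD 16:00 replicate 2 (adjusted p between 0.0566 and 0.0987). CRY2 in WT LD (adjusted p = 0.0128) was lost without either WT LD 04:00 library (adjusted p between 0.0614 and 0.0946), and CRY1a in WT LD (adjusted p = 0.0251) without any 1 of 4 libraries, WT LD 04:00 replicate 1, WT LD 08:00 replicate 1, WT LD 16:00 replicate 2 and WT LD 20:00 replicate 2 (adjusted p between 0.054 and 0.0924). Without the libraries labelled 12:00, 31 of the 32 cosine fits passed.

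Also without 12:00, the OsPIL1 peak lay at 10.8 h in csa SD and 10.6 h in WT SD, with a log2 amplitude of 3.19 and 3.19. The COP1 peak lay at 7.67 h in csa SD and 7.62 h in WT SD, and the PHYB peak at 21.1 h and 20.6 h. The peaks ranged over the 4 combinations from 22.4 to 23.8 h for PHYA, 18.2 to 19.9 h for PHYC, 6.42 to 9.08 h for CRY1a, 3.85 to 6.16 h for CRY1b and 12.4 to 13.6 h for CRY2. For CRY2 these peaks too lay away from its highest mean, which was at 08:00.

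Averaged over the 6 times, SD leaves had more transcript than LD leaves for PHYA, PHYC, CRY1b, CRY2 and OsPIL1 in both genotypes. In csa 6 of 8 genes were called, 5 higher and 1 lower (background 43.1% of genes, 23.2% higher), and in WT 5 of 8, all higher (background 45.9%, 24.2% higher). OsPIL1 was higher in SD by 0.49 ± 0.06 in csa (adjusted p = 4.34e-08) and 0.77 ± 0.06 in WT (adjusted p = 3.96e-12). CRY2 was higher by 0.36 ± 0.06 in csa (adjusted p = 8.67e-06) and 0.52 ± 0.06 in WT (adjusted p = 1.56e-08) by edgeR. The differences of the other genes called higher were 0.27 ± 0.07 in csa and 0.36 ± 0.07 in WT for PHYA, 0.22 ± 0.07 and 0.48 ± 0.07 for PHYC, and 0.21 ± 0.05 and 0.36 ± 0.05 for CRY1b. CRY1a was lower in SD in csa (−0.28 ± 0.08, adjusted p = 0.00377), and in WT it was not called (−0.09 ± 0.08, adjusted p = 0.361). COP1 in WT (0.14 ± 0.06, adjusted p = 0.052) passed in 11 of the 48 fits that each left out 1 library (adjusted p between 0.0185 and 0.05). Without the libraries labelled 12:00 the counts were again 6 and 5, with OsPIL1 at 0.44 in csa and 0.63 in WT.

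The photoperiod difference was also tested at each of the 6 times, and 24 of the 48 comparisons of a gene at a time passed the edgeR test. The background ran from 32.3% of genes at 20:00 to 45.3% at 12:00. Which hours passed is not itself a test of whether the difference varied with the hour. At 08:00, 4 of 8 genes were called, all higher in SD (background 36.6% in either direction and 16.9% higher). PHYC had 41.5 and 50.3 CPM in csa and 55.1 and 55.6 CPM in WT in SD at 08:00, against 28.8 and 24.3 CPM in csa and 17.03 and 19.7 CPM in WT in LD. All 4 SD libraries lay above all 4 LD libraries (1.19 ± 0.12, adjusted p = 6.71e-09). PHYA had 34.1 and 33.6 CPM in csa and 32.2 and 33.9 CPM in WT in SD, against 19.2 and 15.5 CPM in csa and 13.3 and 20.4 CPM in WT in LD, again without overlap (0.96 ± 0.12, adjusted p = 1.76e-07). OsPIL1 had 836 and 993 CPM in csa and 1206 and 1052 CPM in WT in SD, against 553 and 454 CPM in csa and 376 and 377 CPM in WT in LD, without overlap (1.22 ± 0.10, adjusted p = 2.17e-11). CRY1b was also higher (0.54 ± 0.09, adjusted p = 2.83e-05 by edgeR).

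At 12:00, 6 of 8 genes were called (background 45.3%). OsPIL1 (1.05 ± 0.10, adjusted p = 4.01e-10), COP1 (0.68 ± 0.10, adjusted p = 2.4e-06), PHYA (0.54 ± 0.11, adjusted p = 0.000306) and CRY2 (0.53 ± 0.10, adjusted p = 6.5e-05) were higher in SD, and PHYB was lower (−0.41 ± 0.11, adjusted p = 0.00369) by edgeR. COP1 had 285 and 237 CPM in csa and 248 and 225 CPM in WT in SD by their labels, against 166 and 172 CPM in csa and 137 and 147 CPM in WT in LD, without overlap. CRY1b was also higher (0.25 ± 0.09, adjusted p = 0.0292), a call lost without any 1 of 11 libraries, csa SD 00:00 replicate 2, csa SD 12:00 replicate 1, csa LD 12:00 replicate 1, csa LD 20:00 replicates 1 and 2, WT SD 00:00 replicates 1 and 2, WT SD 12:00 replicate 2, WT LD 00:00 replicate 2, WT LD 12:00 replicate 1 and WT LD 20:00 replicate 2 (adjusted p between 0.0548 and 0.134), with no filter on low counts (adjusted p = 0.202) and with only the libraries compared (0.0897). At 16:00, 3 of 8 genes were called (background 39.4%). OsPIL1 was higher in SD (1.38 ± 0.10, adjusted p = 6.3e-12), CRY1b was higher (0.50 ± 0.09, adjusted p = 7.99e-05) and PHYB was lower (−0.32 ± 0.11, adjusted p = 0.0263). The PHYB call was lost without any 1 of 4 libraries, csa SD 16:00 replicate 2, csa LD 16:00 replicate 1, WT SD 16:00 replicate 2 and WT LD 16:00 replicate 1 (adjusted p between 0.0789 and 0.182).

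At 20:00, 4 of 8 genes were called, all higher in SD (background 32.3% in either direction and 17.8% higher). PHYB had 337 and 368 CPM in csa and 359 and 360.1 CPM in WT in SD, against 265 and 241 CPM in csa and 278 and 226 CPM in WT in LD, without overlap (0.50 ± 0.11, adjusted p = 0.00102 by edgeR). OsPIL1 was also higher (0.53 ± 0.10, adjusted p = 0.000125). CRY1b (0.32 ± 0.09, adjusted p = 0.00829) was lost without WT LD 20:00 replicate 2 (log2 0.26, adjusted p = 0.0571) and COP1 (0.34 ± 0.10, adjusted p = 0.0108) without any 1 of 3 libraries, csa SD 20:00 replicate 1, WT SD 20:00 replicate 1 and WT LD 20:00 replicate 2 (adjusted p between 0.0647 and 0.0801). With library totals alone, which shift the median of all genes by −0.17, neither CRY1b (adjusted p = 0.305) nor COP1 (adjusted p = 0.283) passed at 20:00. That scaling called CRY1a lower in SD at 20:00 (log2 −0.47, adjusted p = 0.00231) and at 16:00 (−0.32, adjusted p = 0.031) by edgeR. At 08:00 it called CRY1a higher in SD (0.29, adjusted p = 0.0486).

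At 00:00, 3 of 8 genes were called (background 39.4%), and OsPIL1 now went the other way. OsPIL1 had 16.6 and 17.9 CPM in csa and 21.7 and 20.4 CPM in WT in SD, against 25.99 and 27.8 CPM in csa and 31.2 and 29.4 CPM in WT in LD, with all SD libraries below all LD libraries (−0.58 ± 0.10, adjusted p = 2.89e-05 by edgeR). CRY2 had 22.3 and 21.03 CPM in csa and 29.8 and 33.1 CPM in WT in SD, against 13.6 and 15.04 CPM in csa and 17.03 and 17.3 CPM in WT in LD, without overlap (0.73 ± 0.10, adjusted p = 1.05e-06). CRY1a was lower in SD (−0.48 ± 0.13, adjusted p = 0.00479), a call lost without WT SD 00:00 replicate 2 (log2 −0.35, adjusted p = 0.061).

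At 04:00, 4 of 8 genes were called (background 38.0%). CRY2 had 18.7 and 17.96 CPM in csa and 30.8 and 27.96 CPM in WT in SD, against 13.3 and 13.7 CPM in csa and 12.96 and 10.9 CPM in WT in LD, without overlap (0.87 ± 0.10, adjusted p = 8.91e-08 by edgeR). PHYC was higher in SD (0.64 ± 0.12, adjusted p = 5.42e-05), and so was PHYB (0.36 ± 0.11, adjusted p = 0.0121), whose call was lost without any 1 of 4 libraries, csa SD 04:00 replicate 1, csa LD 04:00 replicate 2, WT SD 04:00 replicate 1 and WT LD 04:00 replicate 2 (adjusted p between 0.06 and 0.103). COP1 was lower in SD (−0.31 ± 0.10, adjusted p = 0.0164) and missed the threshold with library totals alone (adjusted p = 0.0557) and without a filter on low counts (adjusted p = 0.0558).

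**Figure D2:**
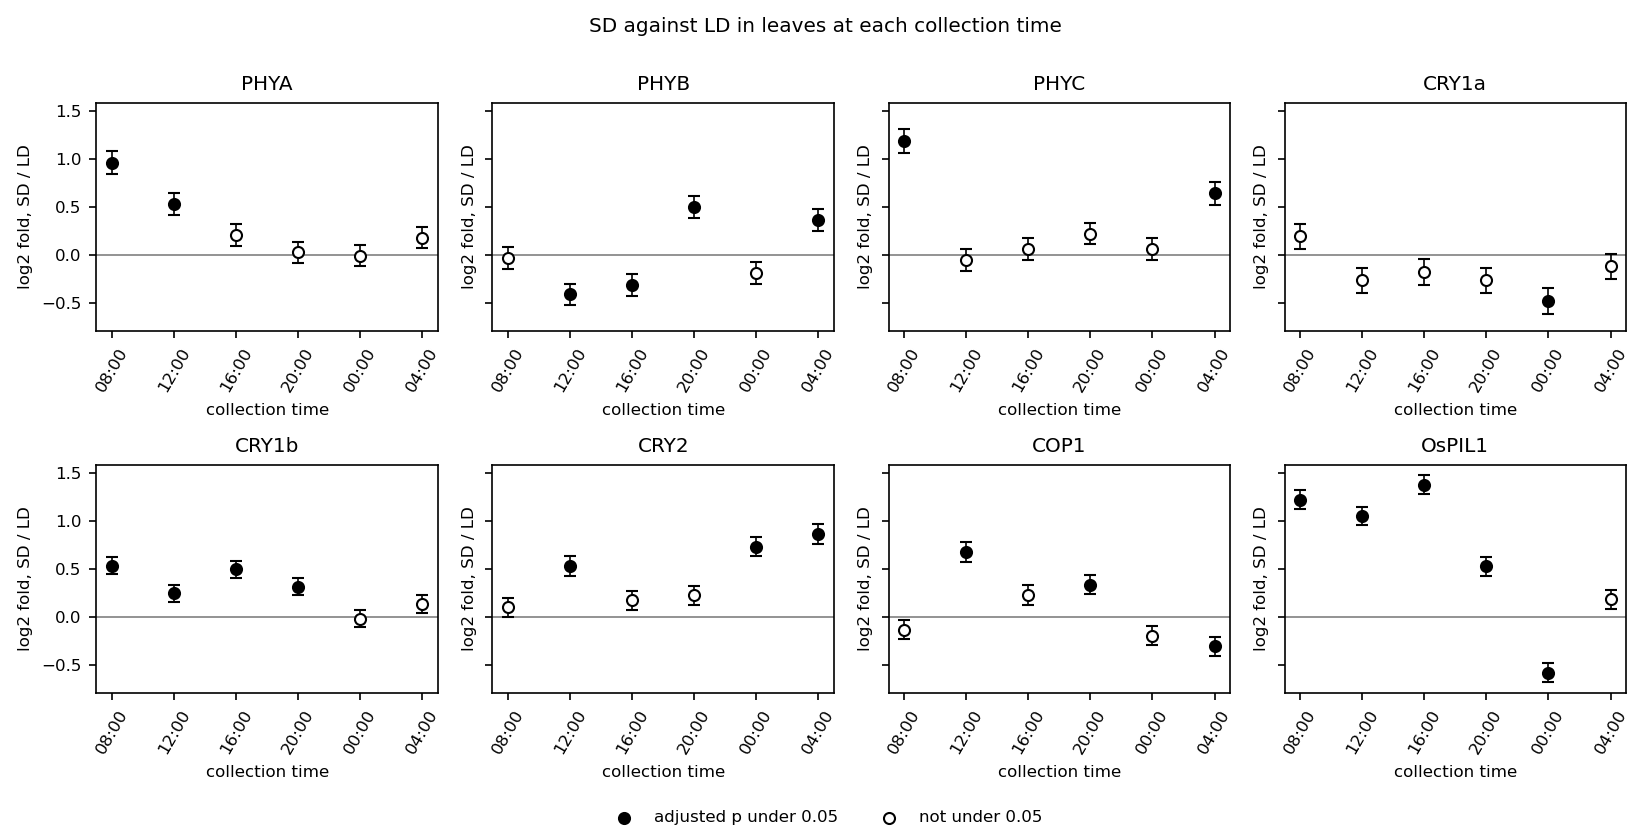
Log2 fold change of SD over LD in leaves at each clock time, 1 panel for each gene, with both genotypes averaged. Bars are the SE, and filled points had an adjusted p below 0.05 by edgeR while open points did not. OsPIL1 is higher in SD from 08:00 to 20:00 and lower at 00:00, CRY2 is higher at 12:00, 00:00 and 04:00, and PHYC at 08:00 and 04:00.

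Tests of the shape of the 24 h course between SD and LD depended on the model. With the 24 h cosine, 0 of 16 comparisons of a gene and a genotype passed the edgeR test (background 7.01% of genes in csa and 14.0% in WT). By edgeR, 1 of 16 had an unadjusted p below 0.05, as did 5291 of all 22095 genes in csa and 6695 in WT. DESeq2 called 2392 of all genes in csa and 4063 in WT, and 1 of the 16. That 1 gene was PHYA in WT (edgeR adjusted p = 0.0541), which passed in 20 of the 48 fits that each left out 1 library (adjusted p between 0.0229 and 0.0473). Without a filter on low counts, OsPIL1 passed the cosine test in both genotypes (adjusted p = 0.00749 in csa and 7.70e-06 in WT by edgeR). With the 6 times as a factor, 12 of 16 passed (background 49.3% of genes in csa and 53.1% in WT), among them OsPIL1 (adjusted p = 5.94e-08 in csa and 1.30e-09 in WT) and PHYC (adjusted p = 0.00352 in csa and 9.23e-06 in WT). CRY1a passed in neither genotype, CRY1b not in WT and CRY2 not in csa. The count was 12 also without the libraries labelled 12:00, an alternative chosen after seeing the data (background 41.1% in csa and 37.5% in WT).

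Between genotypes, none of the 8 genes passed the edgeR test in leaves. In SD, averaged over the 6 times, 0 of 8 genes were called between csa and WT by edgeR (background 0.493% of genes). By edgeR, 1 of 8 had an unadjusted p below 0.05, as did 1955 of all 22095 genes. DESeq2 called 194 of all genes and 1 of the 8. That gene was CRY2 (−0.20 ± 0.06, adjusted p = 0.148 by edgeR, adjusted p = 0.0472 by DESeq2). CRY2 had 22.3 and 21.03 CPM in csa at 00:00 in SD, against 29.8 and 33.1 CPM in WT. At 04:00 it had 18.7 and 17.96 CPM in csa, against 30.8 and 27.96 CPM in WT, so the csa libraries lay below the WT libraries at these hours. At 20:00 the groups overlapped, with 38.5 and 40.7 CPM in csa, against 38.7 and 34.7 CPM in WT. They also overlapped at 08:00 and 16:00. At 12:00 the libraries labelled csa lay below those labelled WT, but these labels go against the genotype markers. The log2 differences of the other 7 genes in SD lay between −0.10 and 0.05. Without the libraries labelled 12:00 the count was again 0 of 8, with CRY2 at −0.22 (adjusted p = 0.0767 by edgeR).

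In LD, 0 of 8 genes were called between csa and WT leaves by edgeR (background 3.42% of genes). By edgeR, 5 of 8 had an unadjusted p below 0.05, as did 3575 of all 22095 genes. DESeq2 called 1132 of all genes and 1 of the 8, and 7 of the 8 had an unadjusted p below 0.05 by DESeq2, as did 3683 of all genes. OsPIL1 came nearest to the threshold (0.18 ± 0.06, adjusted p = 0.0653 by edgeR, adjusted p = 0.0189 by DESeq2). It had 553 and 454 CPM in csa at 08:00 in LD, against 376 and 377 CPM in WT, and 244 and 287 CPM in csa at 12:00, against 177 and 149 CPM in WT. The csa libraries lay above the WT libraries at these hours. They also lay above at 04:00, with 35.8 and 36.8 CPM in csa, against 30.99 and 31.2 CPM in WT. They lay below at 00:00, with 25.99 and 27.8 CPM in csa, against 31.2 and 29.4 CPM in WT, and the groups overlapped at 16:00 and 20:00. OsPIL1 passed without any 1 of 5 libraries, csa LD 08:00 replicate 2, csa LD 12:00 replicate 1, WT LD 12:00 replicate 1, WT LD 16:00 replicate 1 and WT LD 20:00 replicate 1 (adjusted p between 0.0375 and 0.0486) and CRY1b without WT LD 16:00 replicate 1 (log2 0.18, adjusted p = 0.0317). The summed level of 3 leaf marker genes ranged from 14741 to 58129 CPM in csa LD leaves and 13153 to 38452 CPM in WT LD leaves (n = 12 each), 2 of the 3 were called higher in csa, and their part in these values was not tested.

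The photoperiod difference in leaves was not called different between csa and WT for any of the 8 genes by edgeR (background 0.294% of genes). By edgeR, 3 of 8 had an unadjusted p below 0.05, as did 2402 of all 22095 genes. By DESeq2, 5 of 8 and 2540 of all genes did, and 1 of the 8 and 244 of all genes were called. OsPIL1 was the gene that DESeq2 called (−0.28 ± 0.08, adjusted p = 0.136 by edgeR, adjusted p = 0.0293 by DESeq2), and without the libraries labelled 12:00 it was at −0.19 (adjusted p = 0.35 by edgeR). The 24 h course was not called different between csa and WT for any of the 8 genes in either photoperiod. It was 0 of 16 by edgeR (background 0.104% of genes in SD and 0.00453% in LD) and 0 of 16 by DESeq2. By edgeR, 0 of 16 had an unadjusted p below 0.05, against 553 of all genes in SD and 622 in LD. With the times as a factor, OsPIL1 in LD passed (edgeR adjusted p = 0.0331), where 1.10% of genes were called in SD and 2.39% in LD. Without the libraries labelled 12:00 none of the 16 passed (background 0.196% in LD).

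In anthers, several of the 8 genes differed between genotypes. In SD, where csa is male sterile, 5 of the 8 genes were higher in csa than in WT, averaged over 04:00 and 16:00, and none was lower. These were all 3 phytochrome genes, CRY1a and CRY1b. Of all 25203 genes tested, 47.5% were called and 25.8% were higher in csa. The median log2 difference of the 8 genes was 0.53, against 0.08 over all genes tested.

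PHYA had 178 and 181 CPM at 04:00 and 166 and 146 CPM at 16:00 in csa SD anthers, against 128 and 129 CPM at 04:00 and 65.1 and 71.6 CPM at 16:00 in WT SD anthers. Every csa library lay above every WT library, and the log2 difference was 0.83 ± 0.13 (adjusted p = 0.000373 by edgeR). PHYC had 63.01 and 60.2 CPM at 04:00 and 93.9 and 95.5 CPM at 16:00 in csa, against 47.6 and 44.5 CPM at 04:00 and 50.9 and 46.9 CPM at 16:00 in WT. The groups did not overlap (0.69 ± 0.09, adjusted p = 0.000111). PHYB had 94.05 and 82.4 CPM at 04:00 and 110.3 and 100.2 CPM at 16:00 in csa, against 68.4 and 71.1 CPM at 04:00 and 68.6 and 61.8 CPM at 16:00 in WT, again without overlap (0.52 ± 0.11, adjusted p = 0.00331).

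CRY1b had 15.5 and 12.7 CPM at 04:00 and 12.99 and 10.1 CPM at 16:00 in csa SD anthers, against 8.60 and 6.73 CPM at 04:00 and 7.61 and 6.65 CPM at 16:00 in WT SD anthers, without overlap (0.79 ± 0.14, adjusted p = 0.00111 by edgeR). CRY1a had 18.6 and 14.2 CPM at 04:00 and 10.5 and 8.92 CPM at 16:00 in csa, against 9.26 and 7.36 CPM at 04:00 and 8.47 and 9.51 CPM at 16:00 in WT. Its 2 groups overlapped at 16:00 and stood apart at 04:00 (0.54 ± 0.14, adjusted p = 0.00719). CRY2 averaged 67.3 ± 15.4 CPM in csa and 62.6 ± 8.15 CPM in WT (mean ± s.d., n = 4 each) and was not called (0.09 ± 0.07, adjusted p = 0.316). OsPIL1 averaged 14.02 ± 4.58 CPM in csa and 13.4 ± 4.95 CPM in WT and was not called either (0.06 ± 0.20, adjusted p = 0.836). COP1 was not called (0.29 ± 0.12, adjusted p = 0.0557) but passed without WT SD 04:00 replicate 1 or without csa SD 16:00 replicate 1 (adjusted p between 0.0156 and 0.0233). All 5 calls held in each of the 16 fits that left out 1 library.

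**Figure D3:**
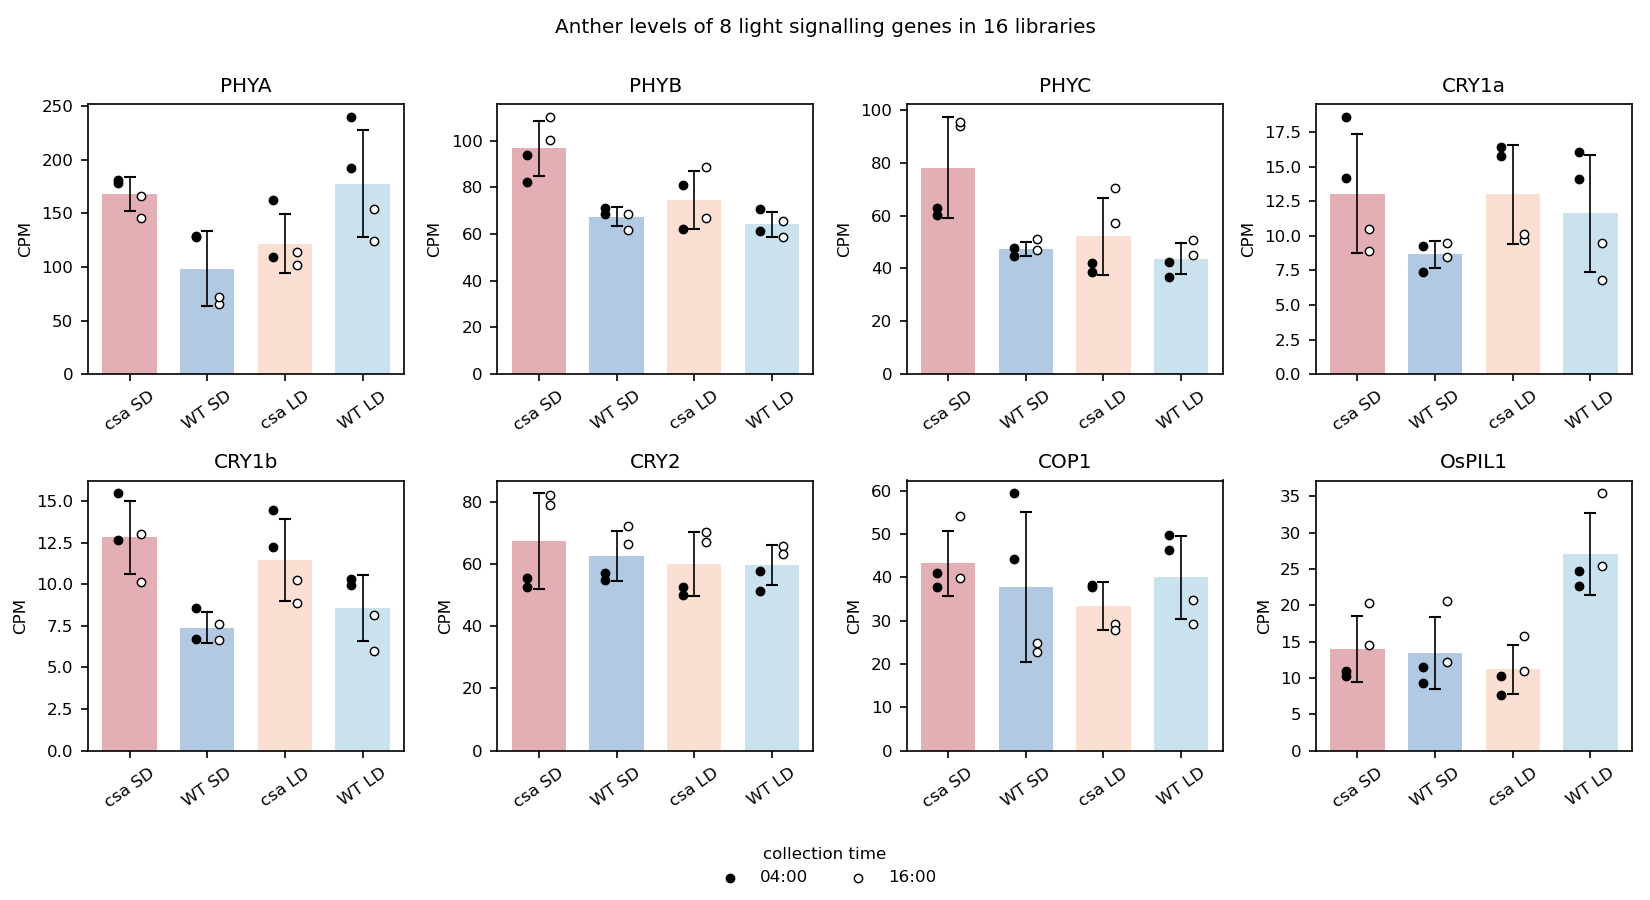
Anther level in CPM of each of the 8 genes in csa SD, WT SD, csa LD and WT LD. Bars are means of 4 libraries with s.d., filled points are the libraries of 04:00 and open points those of 16:00. PHYA averages 168 CPM in csa SD and 98.4 CPM in WT SD, while the LD means are 122 CPM in csa and 178 CPM in WT, and OsPIL1 is highest in WT LD.

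In LD, where csa is fertile, 3 of the 8 genes were called between csa and WT anthers (background 35.2% of genes, 16.5% lower), and 2 of them were lower in csa. PHYA had 109 and 163 CPM at 04:00 and 114 and 101 CPM at 16:00 in csa LD anthers, against 240.0 and 192 CPM at 04:00 and 124 and 154 CPM at 16:00 in WT LD anthers. The csa values lay below the WT values at each hour, with an overlap between the hours, and the log2 difference was −0.52 ± 0.13 (adjusted p = 0.00859 by edgeR). OsPIL1 had 7.69 and 10.2 CPM at 04:00 and 15.8 and 10.96 CPM at 16:00 in csa, against 22.7 and 24.8 CPM at 04:00 and 25.4 and 35.4 CPM at 16:00 in WT. No csa library reached the lowest WT library (−1.29 ± 0.20, adjusted p = 0.000765), a level in csa of 0.408 times that in WT.

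CRY1b was higher in csa LD anthers, with 12.2 and 14.5 CPM at 04:00 and 10.2 and 8.84 CPM at 16:00 in csa, against 9.93 and 10.3 CPM at 04:00 and 8.16 and 5.98 CPM at 16:00 in WT. The groups overlapped (0.41 ± 0.14, adjusted p = 0.0423 by edgeR), and the call was lost without any 1 of 9 of the 16 libraries, all but csa SD 04:00 replicates 1 and 2, csa SD 16:00 replicates 1 and 2, WT SD 04:00 replicates 1 and 2 and WT LD 16:00 replicate 1 (adjusted p between 0.0572 and 0.16). It was also lost with DESeq2 (adjusted p = 0.0762), RLE scaling (0.0639), no filter on low counts (0.111) and only the libraries compared (0.0623). PHYC was not called (0.22 ± 0.09, adjusted p = 0.0641) but passed without csa LD 16:00 replicate 1 (log2 0.29, adjusted p = 0.0238). PHYB (0.22 ± 0.11, adjusted p = 0.158), CRY1a (0.19 ± 0.14, adjusted p = 0.319), CRY2 (0.00 ± 0.07, adjusted p = 0.999) and COP1 (−0.25 ± 0.12, adjusted p = 0.119) were not called.

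Markers of other anther cell types moved with genotype. The summed level of 3 tapetum genes ranged from 719 to 865 CPM in csa SD anthers, against 1498 to 2916 CPM in WT SD anthers. In LD it was 986 to 1429 CPM in csa, against 2191 to 3219 CPM in WT, and 3 of 3 were called lower in csa in each photoperiod. The summed level of 2 late-pollen genes ranged from 0.567 to 1.47 CPM in csa SD, against 49.02 to 91.7 CPM in WT SD. For LD the range was 2.17 to 13.4 CPM in csa, against 58.1 to 108 CPM in WT, and 2 of 2 were lower in csa in each. The summed level of 3 leaf genes ranged from 1048 to 2729.6 CPM in csa SD, against 259.8 to 2290.2 CPM in WT SD, with 3 of 3 higher in csa. In LD anthers it ranged from 775 to 1252 CPM in csa, against 639 to 1471 CPM in WT, with 2 of 3 higher. No tapetum or late-pollen marker was at 0 in an anther library, and the part of these markers in the results on the 8 light genes was not tested.

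The genotype difference itself differed between SD and LD for 4 of 8 genes, all more positive in SD (background 17.8%, 8.15% more positive). For PHYA it was 0.83 ± 0.13 in SD and −0.52 ± 0.13 in LD, and the test of genotype by photoperiod gave 1.36 ± 0.18 (adjusted p = 0.0037 by edgeR). For OsPIL1 it was 0.06 ± 0.20 in SD and −1.29 ± 0.20 in LD (1.35 ± 0.28, adjusted p = 0.0102). Both calls held in each of the 16 fits that left out 1 library. PHYC (0.46 ± 0.12, adjusted p = 0.0256) was lost without any 1 of 5 libraries, csa SD 04:00 replicate 1, csa LD 04:00 replicate 1, csa LD 16:00 replicate 1, WT SD 04:00 replicate 2 and WT LD 04:00 replicate 1 (adjusted p between 0.0508 and 0.0624). COP1 (0.54 ± 0.16, adjusted p = 0.0419) was lost without any 1 of 12 of the 16 libraries, all but csa SD 16:00 replicate 1, WT SD 04:00 replicate 1, WT SD 16:00 replicate 2 and WT LD 16:00 replicate 1 (adjusted p between 0.0535 and 0.0895). The interaction values of PHYB, CRY1a, CRY1b and CRY2 were 0.30 ± 0.16, 0.36 ± 0.19, 0.37 ± 0.20 and 0.09 ± 0.10, none of them called. In the same test 1 of 3 tapetum markers (EAT1, −0.61, adjusted p = 0.0196) and 1 of 2 late-pollen markers were more negative and 1 of 3 leaf markers more positive, and their part was not tested.

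Set by photoperiod, the same libraries gave 4 genes higher in SD than in LD in csa anthers (background 15.5%, 7.24% higher) and 2 genes lower in SD in WT anthers (background 28.9%, 14.6% lower). These contrasts share their libraries with the genotype contrasts and are not independent of them. In csa, PHYC was higher in SD (0.59 ± 0.09, adjusted p = 0.00267 by edgeR), a call that held in each fit that left out 1 library. PHYA in csa (0.47 ± 0.13, adjusted p = 0.0313) was lost without any 1 of 7 libraries, csa SD 04:00 replicates 1 and 2, csa SD 16:00 replicates 1 and 2, csa LD 04:00 replicate 1 and csa LD 16:00 replicates 1 and 2 (adjusted p between 0.0566 and 0.123). PHYB in csa (0.37 ± 0.11, adjusted p = 0.0477) was lost without any 1 of 14 of the 16 libraries, all but csa LD 04:00 replicate 2 and csa LD 16:00 replicate 2 (adjusted p between 0.0503 and 0.177), and COP1 in csa (0.38 ± 0.12, adjusted p = 0.045) without any 1 of 11 of the 16 libraries, all but csa SD 16:00 replicate 1, WT SD 04:00 replicates 1 and 2 and WT LD 16:00 replicates 1 and 2 (adjusted p between 0.0553 and 0.158). In csa anthers 3 of 3 tapetum markers and 1 of 2 late-pollen markers were lower in SD, and their part was not tested.

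In WT anthers, PHYA was lower in SD (−0.89 ± 0.13, adjusted p = 0.000957 by edgeR), and so was OsPIL1 (−1.04 ± 0.20, adjusted p = 0.00332). All 4 SD libraries of OsPIL1 lay below all 4 LD libraries, while those of PHYA overlapped. In csa OsPIL1 was not called (0.31 ± 0.20, adjusted p = 0.297). CRY1a in WT was not called (−0.36 ± 0.14, adjusted p = 0.0706) but passed without WT LD 16:00 replicate 2 (log2 −0.47, adjusted p = 0.036). In WT anthers 0 of 3 tapetum markers were higher and 0 lower in SD, 0 of 2 late-pollen markers were higher and 0 lower, and 0 of 3 leaf markers were higher and 1 lower. Their part was not tested.

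**Figure D4:**
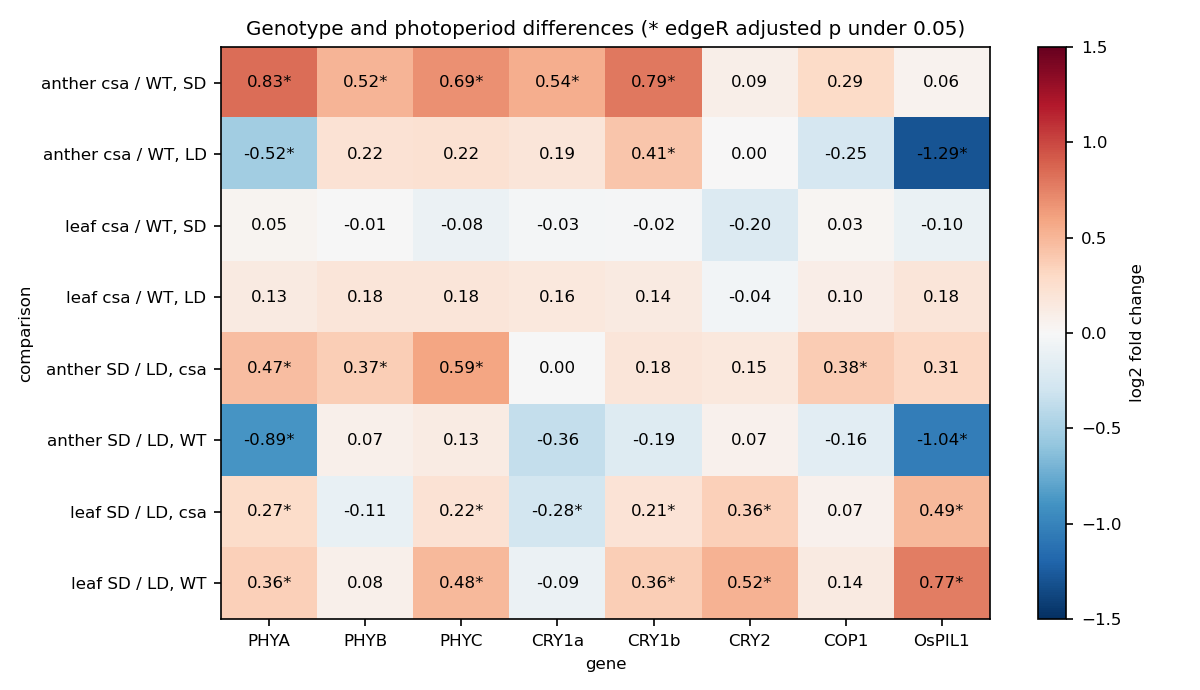
Log2 fold changes of the 8 genes (columns) in the anther and leaf contrasts of genotype and of photoperiod (rows), printed in each cell and coloured from lower (blue) to higher (red), with an asterisk where adjusted p is below 0.05 by edgeR. PHYA is at 0.83 for csa over WT in SD anthers and −0.52 in LD anthers, and the leaf genotype rows hold no call.

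Between 04:00 and 16:00, averaged over both photoperiods, 4 of 8 genes changed in csa anthers (background 32.2%) and 3 of 8 in WT anthers (background 16.7%). In csa, PHYC (−0.64 ± 0.09, adjusted p = 0.000308) and CRY2 (−0.50 ± 0.07, adjusted p = 0.000321) were lower at 04:00, and CRY1a was higher (0.73 ± 0.14, adjusted p = 0.00221) by edgeR. All 4 csa libraries of 04:00 lay above all 4 of 16:00 for CRY1a and below them for CRY2. OsPIL1 in csa (−0.65 ± 0.20, adjusted p = 0.0268) was lost without any 1 of 7 libraries, csa SD 04:00 replicates 1 and 2, csa SD 16:00 replicate 1, csa LD 04:00 replicate 1, csa LD 16:00 replicate 1 and WT LD 04:00 replicates 1 and 2 (adjusted p between 0.0551 and 0.131). CRY1b in csa (0.39 ± 0.14, adjusted p = 0.0567) passed without any 1 of 9 of the 16 libraries, all but csa SD 04:00 replicates 1 and 2, csa SD 16:00 replicate 2, csa LD 04:00 replicate 2, csa LD 16:00 replicates 1 and 2 and WT SD 04:00 replicate 2 (adjusted p between 0.0352 and 0.0495), and PHYA in csa (0.27 ± 0.13, adjusted p = 0.127) without csa LD 04:00 replicate 1 (log2 0.45, adjusted p = 0.018). In csa 2 of 3 leaf markers and 1 of 3 tapetum markers (EAT1, −0.83, adjusted p = 0.000223) were lower at 04:00, 0 of 2 late-pollen markers were called, and their part was not tested.

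In WT anthers, COP1 (0.85 ± 0.12, adjusted p = 0.000643) and PHYA (0.77 ± 0.13, adjusted p = 0.00233) were higher at 04:00 than at 16:00 by edgeR. For COP1 all 4 libraries of 04:00 lay above all 4 of 16:00. CRY2 was lower at 04:00 without overlap (−0.28 ± 0.07, adjusted p = 0.0172), and the call was lost without any 1 of 3 libraries, WT SD 04:00 replicate 1, WT SD 16:00 replicate 2 and WT LD 04:00 replicate 2 (adjusted p between 0.0589 and 0.0678), and without a filter on low counts (adjusted p = 0.0947). CRY1a in WT (0.39 ± 0.14, adjusted p = 0.0767) passed without WT LD 16:00 replicate 1 (log2 0.52, adjusted p = 0.0375), and OsPIL1 (−0.50 ± 0.20, adjusted p = 0.1) without WT SD 16:00 replicate 1 (log2 −0.68, adjusted p = 0.044). In WT 3 of 3 leaf markers were lower at 04:00, 0 of 3 tapetum and 0 of 2 late-pollen markers were called, and the part of the leaf markers was not tested.

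In SD the difference between 04:00 and 16:00 differed between csa and WT for 4 of 8 genes (background 34.9%). COP1 had 37.8 and 41.02 CPM at 04:00 and 39.95 and 54.3 CPM at 16:00 in csa SD anthers, against 59.4 and 44.3 CPM at 04:00 and 22.7 and 24.96 CPM at 16:00 in WT SD anthers. The csa libraries were the higher ones at 16:00, and at 04:00 the WT libraries were, and the test gave −1.38 ± 0.23 (adjusted p = 0.00132 by edgeR). This call held in each of the 16 fits that left out 1 library. CRY1a (0.87 ± 0.28, adjusted p = 0.0297) was lost without any 1 of 4 libraries, csa SD 04:00 replicate 1, csa SD 16:00 replicate 2, WT SD 04:00 replicate 2 and WT SD 16:00 replicate 2 (adjusted p between 0.0719 and 0.128). PHYC (−0.53 ± 0.17, adjusted p = 0.0322) was lost without any 1 of 9 of the 16 libraries, all but csa SD 16:00 replicate 1, csa LD 04:00 replicate 2, csa LD 16:00 replicates 1 and 2, WT SD 04:00 replicate 2 and WT LD 16:00 replicates 1 and 2 (adjusted p between 0.0559 and 0.157), and PHYA (−0.71 ± 0.26, adjusted p = 0.0497) without any 1 of 12 of the 16 libraries, all but csa LD 04:00 replicates 1 and 2 and WT LD 16:00 replicates 1 and 2 (adjusted p between 0.0558 and 0.201). In LD 0 of 8 genes and 0 of all genes were called by edgeR, with 1 of the 8 and 2587 of all genes at an unadjusted p below 0.05, and DESeq2 called 0 of the 8 and 86 of all genes (background 0.00%). In the SD test 3 of 3 leaf markers and 1 of 3 tapetum markers were called higher and 1 of 3 tapetum markers lower, and their part was not tested.

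Anthers and leaves of WT were compared in a joint fit at the 2 hours they share. Both tissues came from the same tillers, and whether same-numbered anther and leaf libraries pair was not tested. All 8 genes differed between the tissues at both hours by edgeR, where 82.6% of 25652 genes were called at 04:00 and 82.7% at 16:00. Lower in anthers were 34.7% of genes at 04:00 and 36.1% at 16:00. PHYA and CRY2 were higher in anthers and the other 6 genes were lower, while the median of all genes was 0.36 at 04:00 and 0.26 at 16:00. PHYA averaged 142 ± 46.99 CPM in anthers and 74.3 ± 12.1 CPM in leaves at 04:00 (mean ± s.d., n = 4 each, joint scaling), without overlap (0.89 ± 0.14, adjusted p = 5.58e-05). At 16:00 it averaged 85.5 ± 34.2 CPM in anthers and 50.8 ± 9.02 CPM in leaves, with overlap (0.67 ± 0.14, adjusted p = 0.00059). CRY2 was higher in anthers at 04:00 (0.97 ± 0.09, adjusted p = 7.27e-07) and at 16:00 (0.28 ± 0.09, adjusted p = 0.0141), and the 16:00 call was lost without anther WT SD 16:00 replicate 2 (0.24, adjusted p = 0.0555).

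CRY1b had the largest tissue difference of the 8 genes at both hours. It averaged 7.30 ± 1.46 CPM in anthers and 362 ± 42.7 CPM in leaves at 04:00 (−5.64 ± 0.15, adjusted p = 5.1e-12 by edgeR). At 16:00 it averaged 5.87 ± 0.768 CPM in anthers and 149 ± 35.4 CPM in leaves (−4.64 ± 0.14, adjusted p = 1.24e-11). The log2 difference of CRY1a, anthers over leaves, was −3.99 ± 0.17 at 04:00 and −3.85 ± 0.17 at 16:00. That of COP1 was −2.60 ± 0.13 at 04:00 and −1.46 ± 0.13 at 16:00, and that of OsPIL1 −1.71 ± 0.17 and −2.10 ± 0.17. PHYB was at −1.37 ± 0.09 and −1.98 ± 0.09, and PHYC at −1.38 ± 0.10 and −2.12 ± 0.10.

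**Figure D5:**
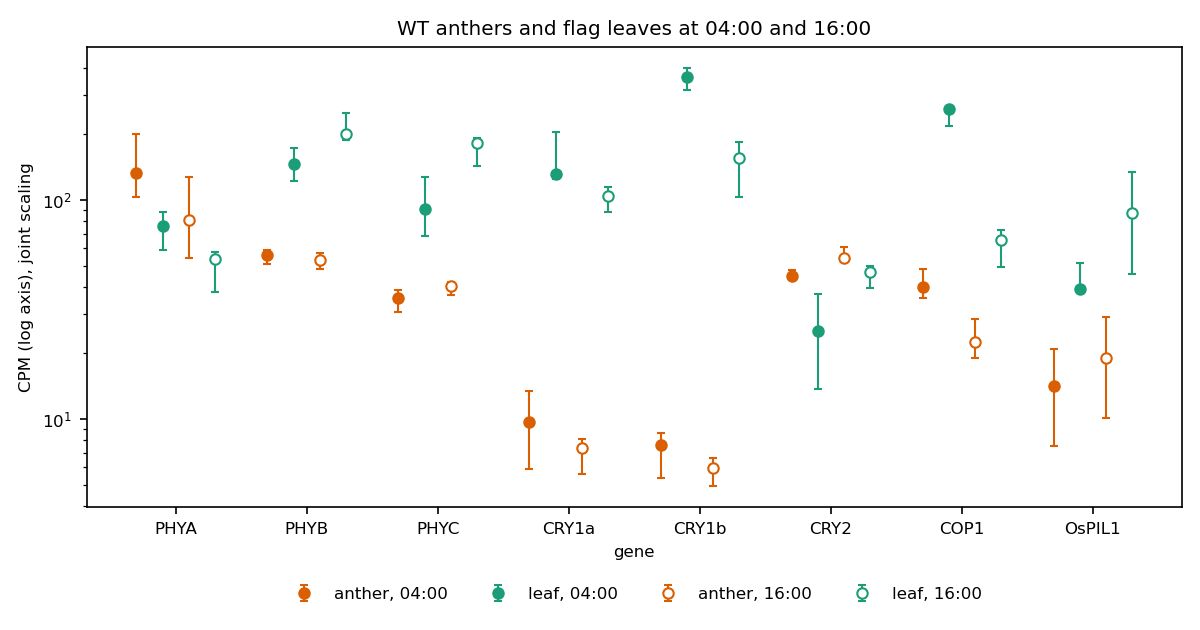
Level in CPM (log axis, joint scaling) of each of the 8 genes in WT anthers and WT leaves at 04:00 and at 16:00. Points are medians and bars run from the lowest to the highest of 4 libraries; levels of different genes are not compared, since gene length is not accounted for. CRY1a and CRY1b lie far lower in anthers than in leaves, and PHYA and CRY2 lie higher in anthers by their medians.

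The difference between 04:00 and 16:00 was itself different between anthers and leaves for 5 of 8 genes (background 39.1%). Relative to leaves, anthers had a more negative value for COP1 (−1.14 ± 0.17, adjusted p = 0.000184) and CRY1b (−0.99 ± 0.18, adjusted p = 0.000711). They had a more positive value for PHYB (0.61 ± 0.12, adjusted p = 0.00146), PHYC (0.74 ± 0.13, adjusted p = 0.000714) and CRY2 (0.69 ± 0.13, adjusted p = 0.00105) by edgeR. COP1, for example, averaged 40.9 ± 5.37 CPM at 04:00 and 23.1 ± 4.15 CPM at 16:00 in anthers, and 249 ± 21.7 CPM at 04:00 and 63.2 ± 9.93 CPM at 16:00 in leaves. OsPIL1 (0.39 ± 0.24, adjusted p = 0.227) passed without anther WT SD 16:00 replicate 2 (0.61, adjusted p = 0.0338).

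The pattern of each gene across leaf groups was set beside those of the other genes. Pearson correlations of group mean log2 CPM were computed over the 20 leaf groups outside 12:00, which share libraries and follow the clock, so they are descriptions. Among the 8 genes, the course of COP1 was most unlike that of PHYC (r = −0.91) and most like that of CRY1a (r = 0.88). PHYB and PHYC had r = 0.86, CRY1b and COP1 had r = 0.82, and PHYA and OsPIL1 had r = −0.81. The most alike were then sought among 45 candidates, the other genes of the 8 and the listed genes of light signalling, light response and the clock. For COP1 it was SE5, a gene of phytochrome chromophore synthesis (r = 0.95). For CRY1a it was PHOT2, a phototropin (r = 0.91), and for CRY2 the clock gene OsPRR73 (r = 0.86). For OsPIL1 it was LOC_Os03g43810 (r = 0.97), for CRY1b LOC_Os12g41650 (r = 0.95), for PHYB and PHYC LOC_Os01g38530 (r = 0.90 and 0.91) and for PHYA LOC_Os05g51480 (r = 0.84). Over all genes tested, LOC_Os07g37560 was most like COP1 (r = 0.99) and LOC_Os07g46360 most like OsPIL1 (r = 0.98).

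Other genes of the pathway were read from a list of 18 further light-signalling genes, 17 of which were in the tables and tested, and a list of 8 light-response genes of chlorophyll and photosynthesis. The reference table holds the symbol on the same chromosome for 5 of the 18, 7 of the 8, 2 of the 3 tapetum markers and 1 of the 2 late-pollen markers, and the other identifiers of these lists were not checked. In SD anthers, 8 light-signalling genes were higher and 1 lower in csa than in WT (median log2 0.30), and 8 light-response genes were higher and 0 lower (median 0.83), against a median of 0.08 and 47.5% called over all genes. SE5, a heme oxygenase of chromophore synthesis, was lower in csa (−0.54 ± 0.11, adjusted p = 0.00223 by edgeR), and PHOT2 was higher (0.89 ± 0.19, adjusted p = 0.00259). CHLH, a subunit of magnesium chelatase, was higher (0.80 ± 0.14, adjusted p = 0.000932), and so were CAB2R, a light-harvesting protein gene (1.25 ± 0.23, adjusted p = 0.00116), and GLK2, a chloroplast regulator (0.93 ± 0.18, adjusted p = 0.00154). In LD anthers, 0 light-signalling genes were higher and 3 lower (median −0.25), and 6 light-response genes were higher and 0 lower (median 0.57), against a median of 0.04 and 35.2% called over all genes. There SE5 was lower (−0.90 ± 0.11, adjusted p = 0.000238) and GLK2 higher (0.93 ± 0.18, adjusted p = 0.00266). All 3 leaf markers above, CAB2R among them, are also among the 8 light-response genes, so the counts of markers and of light-response genes are not separate observations. All 3 leaf markers were called higher in csa SD anthers.

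By photoperiod, 3 light-signalling genes were higher and 0 lower in SD than in LD in csa anthers, and 0 were higher and 6 lower in WT anthers (medians 0.15 and −0.37, against 0.00 and 0.01 over all genes, of which 15.5% were called in csa and 28.9% in WT). PHOT2 was higher in SD in csa (0.76 ± 0.19, adjusted p = 0.0216 by edgeR), as was CHLH (0.58 ± 0.14, adjusted p = 0.021). The test of genotype by photoperiod called 4 light-signalling genes and 1 light-response gene, all more positive in SD (background 17.8%), with PHOT2 at 1.20 ± 0.27, adjusted p = 0.0133. PHOT1a was also called higher in SD in csa (1.05 ± 0.30, adjusted p = 0.0353), but it has a near-identical copy, PHOT1b, so its reads are uncertain.

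In leaves, 10 light-signalling genes were higher and 5 lower at 08:00 than at 04:00 in SD (background 58.4%), and 10 higher and 6 lower in LD (background 50.0%). Of the light-response genes 7 were higher and 0 lower in each photoperiod. CAB1R, a light-harvesting protein gene, was higher at 08:00 in SD (7.17 ± 0.36, adjusted p = 5.29e-17) and in LD (9.12 ± 0.39, adjusted p = 1.49e-18) by edgeR. HO2, a heme oxygenase relative, was lower at 08:00 in SD (−3.69 ± 0.27, adjusted p = 2.89e-13). At 20:00 against 16:00, 4 light-signalling genes were higher and 10 lower in SD (background 53.2%), and 5 higher and 8 lower in LD (background 48.4%). Light-response genes were 0 higher and 6 lower in SD and 2 higher and 5 lower in LD. SE5 was lower at 20:00 in SD (−1.44 ± 0.12, adjusted p = 6.57e-12).

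Between photoperiods in leaves, 8 light-signalling genes were higher and 6 lower in SD in csa (background 43.1%), and 9 higher and 6 lower in WT (background 45.9%). Light-response genes were 0 higher and 1 lower in csa (median 0.11) and 8 higher and 0 lower in WT (median 0.57). Without the libraries labelled 12:00, the light-signalling genes were 7 higher and 5 lower in csa and 9 higher and 5 lower in WT, and the light-response genes 0 higher and 1 lower in csa and 5 higher and 0 lower in WT (background 40.9% in csa and 43.0% in WT). Counts of calls in each genotype do not test a difference between genotypes. With all libraries, the leaf test of genotype by photoperiod called 1 of 8 light-response genes, more negative in csa (median −0.48, background 0.294%). It called 0 of 17 light-signalling genes. Between genotypes in LD leaves, 0 light-signalling genes were higher and 1 lower in csa, and 6 light-response genes were higher and 0 lower (median 0.44, against 0.00 over all genes, of which 3.42% were called). PORB, an enzyme of chlorophyll synthesis, was higher in csa LD leaves (0.52 ± 0.10, adjusted p = 0.00177 by edgeR), and so were CAB2R (0.72 ± 0.14, adjusted p = 0.00175) and CHLH (0.37 ± 0.08, adjusted p = 0.00894).

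Between tissues, 13 light-signalling genes were lower and 1 higher in WT anthers than in leaves at 04:00, and 11 lower and 3 higher at 16:00. Light-response genes were 5 lower and 2 higher at 04:00 and 8 lower and 0 higher at 16:00. Over all genes 82.6% were called at 04:00 and 82.7% at 16:00, 34.7% and 36.1% as lower, with medians of 0.36 and 0.26. PHOT2 was lower in anthers at 04:00 (−5.23 ± 0.18, adjusted p = 3.91e-11) and at 16:00 (−5.30 ± 0.18, adjusted p = 3.06e-11) by edgeR. CHLH was lower at 04:00 (−3.99 ± 0.18, adjusted p = 4.5e-10) and at 16:00 (−4.32 ± 0.19, adjusted p = 2.23e-10).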

How the data were processed

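The authors deposited tables of raw read counts per gene for anthers and for leaves, with a column for each library. Per the labels' protocols, total RNA was extracted with TRIzol and reverse-transcribed into cDNA libraries. Not given in the sources used here are the aligner, the counting tool, its use of strand and the genome build. Per the labels, the 2 libraries of each group are biological replicates.

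Counts were analysed in R 4.3.3 with edgeR 4.0.16 (filterByExpr, TMM scaling, quasi-likelihood F-test with trended dispersions, Benjamini-Hochberg adjustment over all genes tested, threshold 0.05). The 16 anther libraries (TMM factors 0.93 to 1.05) and the 48 leaf libraries (0.63 to 1.41) were fitted separately by group means, and the 16 WT libraries of the hours that both tissues share were fitted jointly. Rhythm was tested with a cosine and a sine term of 24 h. Each fit was tested on simulated data. All replicate pairs differed by more than sampling noise (chi-square per gene at least 8.71 in anthers and 6.90 in leaves). DESeq2 1.42.0, RLE scaling, library totals alone, no filter on low counts, a replicate block, only the libraries compared, times as a factor, leaving out 12:00 and leaving out each library were tried as alternatives.

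The 8 genes, the gene lists and the tests were chosen with earlier results of these data known. Of the listed genes, up to 4 with the lowest p among those called were eligible to be named in each comparison, and they are named where the reference table gives their symbol on the same chromosome, which holds for 22 of 44 listed genes and 3 of the 8 genes reported. Same-numbered replicates did not pair the groups consistently: the correlation of their deviations from group means ran from −0.38 to 0.37 over 28 pairs of anther groups and from −0.37 to 0.33 over 276 pairs of leaf groups.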

Additional observations from a re-analysis of the deposited data

Results flagged for a closer look

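In 13 tests an effect differed between groups, each by the adjusted p of edgeR's test of the difference itself. In anthers, the difference of csa over WT was more positive in SD than in LD for PHYA (log2 1.36, adjusted p = 0.0037), OsPIL1 (1.35, adjusted p = 0.0102), COP1 (0.54, adjusted p = 0.0419) and PHYC (0.46, adjusted p = 0.0256). In SD anthers, the difference of 04:00 over 16:00 was more positive in csa than in WT for CRY1a (0.87, adjusted p = 0.0297) and more negative for COP1 (−1.38, adjusted p = 0.00132), PHYA (−0.71, adjusted p = 0.0497) and PHYC (−0.53, adjusted p = 0.0322). In WT, the difference of 04:00 over 16:00 was more positive in anthers than in leaves for PHYC (0.74, adjusted p = 0.000714), CRY2 (0.69, adjusted p = 0.00105) and PHYB (0.61, adjusted p = 0.00146), and more negative for COP1 (−1.14, adjusted p = 0.000184) and CRY1b (−0.99, adjusted p = 0.000711). In this order 4, 4 and 5 of 8 genes were called, against a background of 17.8%, 34.9% and 39.1% of genes. As given above, COP1 and PHYC in genotype by photoperiod were lost without single libraries. So were CRY1a, PHYA and PHYC in genotype by time in SD.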

How the results depend on the processing

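With library totals alone, CRY1b changed sign between 04:00 and 08:00 in leaves (−0.031, adjusted p = 0.765 in SD, −0.45, adjusted p = 2.05e-05 in LD, by edgeR), and 5 genes instead of 3 were called between csa and WT anthers of LD. That scaling also shifts the median of all genes by 0.40 at 04:00 and 0.39 at 16:00 between anthers and leaves, by −0.12 between SD and LD leaves of 16:00, and by −0.11 in the anther test of genotype by time in SD. RLE scaling called 2 genes instead of 4 between SD and LD in csa anthers (PHYB and COP1 were lost), 2 instead of 4 in the anther tests of genotype by time (PHYA and PHYC were lost), 1 instead of 0 between csa and WT leaves of LD and 1 instead of 0 in the cosine course of SD against LD. With only the libraries compared, 2 instead of 4 genes were called between SD and LD in csa anthers (PHYA and PHYB were lost). DESeq2 called 1 instead of 0 genes in each of 4 leaf tests, csa against WT in each photoperiod, genotype by photoperiod, and the cosine course of SD against LD. In that last test 2 instead of 0 were called without a filter on low counts, OsPIL1 in both genotypes. It was 12 with the times as a factor, and 12 with the times as a factor and without 12:00. The course of csa against WT gave 1 instead of 0 with the times as a factor. The cause was not tested for any of these.

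With a replicate block, 2 instead of 4 genes were called between SD and LD in csa anthers (PHYB, adjusted p = 0.0667, and COP1, adjusted p = 0.0609, by edgeR) and 1 instead of 0 between csa and WT leaves of LD (OsPIL1, adjusted p = 0.0477). Under the block COP1 in the anther test of genotype by photoperiod (adjusted p = 0.0573) and PHYA in that of genotype by time in SD (adjusted p = 0.0625) missed the threshold, and CRY1b between 04:00 and 16:00 in csa anthers passed (adjusted p = 0.0378). No other call on the 8 genes changed. The replicate numbers did not pair the groups consistently. In anthers the correlation of deviations was above 0.1 in 9 and below −0.1 in 10 of 28 pairs of groups. In leaves it was above 0.1 in 54 and below −0.1 in 32 of 276 pairs.

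Leaving out each library in turn gave, between csa and WT, 5 to 6 genes in SD anthers and 2 to 3 in LD anthers, and 0 in SD leaves and 0 to 2 in LD leaves. Between SD and LD it gave 1 to 3 genes in csa anthers (4 with all libraries) and 2 to 3 in WT anthers, 6 in csa leaves and 5 to 6 in WT leaves, and 21 to 26 at the 6 leaf times together (24 with all libraries). Genotype by photoperiod gave 2 to 4 in anthers and 0 in leaves, 04:00 against 16:00 gave 6 to 9 in anthers, and genotype by time 1 to 4. In leaves, 20:00 against 16:00 gave 9 to 10, 08:00 against 04:00 gave 15, the cosine rhythm 29 to 31, the cosine course of SD against LD 0 to 1 and that of csa against WT 0. Anthers against leaves gave 15 to 16, and tissue by time 5 to 6. Over single genes and comparisons, DESeq2 kept direction and call in 269 of 280, gained 9 and lost 2, while RLE scaling kept 271, gained 4 and lost 5, and the fits without a filter kept 267, gained 6 and lost 7. Library totals alone lost COP1 in the anther test of genotype by photoperiod (adjusted p = 0.0545) and CRY1a in that of genotype by time in SD (adjusted p = 0.0608), by edgeR. PHYC in genotype by time in SD missed without a filter (adjusted p = 0.148), and PHYA with DESeq2 (adjusted p = 0.0505).

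Each group holds 2 libraries. In anthers csa and WT also differed in tapetum and late-pollen markers, so a change within a cell type and a change in the makeup of the tissue cannot be told apart. The leaf markers differed too, 3 of 3 in SD and 2 of 3 in LD. They are light-response genes that were lower at 04:00 than at 16:00 in WT anthers, so they do not mark tissue makeup alone. The csa and WT labels of SD leaves at 12:00 go against their markers. The counts hold no gene length, so levels were not compared between genes.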
